A study of Mus musculus with 4 samples.

Results

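Carbonic anhydrases are zinc enzymes that convert carbon dioxide and water into bicarbonate and a proton, and back. In the colon surface epithelium they supply both ions to exchangers that take up sodium and chloride, and the family differs mainly in where each enzyme sits: in the cytosol, in mitochondria, or on the outer face of the cell membrane. The 10 genes described here (Car1, Car2, Car4, Car5b, Car7, Car8, Car9, Car12, Car13 and Car14) were taken by gene name from 54621 gene names in the tables. The rule held no measured value, but the genes were picked with earlier results of these data known. All 10 were listed in every library.

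RNA sequencing was done on colorectal tissue of germ-free (GF) mice, which are raised without microbes, given the carcinogen azoxymethane (AOM), then 1% dextran sodium sulfate (DSS), which damages colon epithelium, in 3 cycles, with tissue taken at week 36. The mice were wild type (WT) or Clec7a-/- (KO), the latter lacking the gene of Dectin-1, a beta-glucan receptor of myeloid cells. One library was made per genotype from polyps and 1 from non-polyp tissue, 4 libraries in all, each from pooled RNA of several mice, all of which had received AOM and DSS. Per the study's methods, GF WT mice were bought, whereas GF KO pups came by caesarean section and were fostered on GF WT mothers, so that genotype and origin of the animals cannot be told apart. The paper states that GF KO mice did not form polyps, yet it also describes RNA sequencing of polyps from GF KO mice. The labels too give a KO polyp library, which is called by its label here. What tissue it held was not tested.

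With 1 library per group there was no replicate error, no SD and no p-value, and each difference is one between 2 pools. Levels are given as TPM, transcripts per 1000000 transcripts, which are scaled to gene length. Genes count as higher or lower once their log2 ratio, taken on TPM + 1, passed 1 in that direction. The coverage and FPKM columns imply between 2.73 and 2.79 gigabases of aligned sequence in 3 libraries, and for KO non-polyp tissue the depth is unknown. Clec7a itself stood at 5.97 TPM in WT non-polyp tissue and 31.2 in WT polyps, against 0.0766 and 0.102 TPM in the KO libraries, as the labels say. Epithelial genes were abundant in all 4 libraries: the sum over a pan-epithelial list of 10 genes was between 11365 and 13627 TPM.

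The family is built around a zinc ion held by 3 histidines, and the stretch that carries the first pair of them is shown for the genes that the results turn on. Each line is 30 bases of coding sequence on the strand of the gene, with the codons aligned to that pair of histidines in capitals.
Car1: cagttcCATtttCACtggggcaactcaaac
Car2: cagtttCACtttCACtggggctcatctgat
Car4: cagttgCACctgCACtggtcaaatgggaat
Car9: cagttgCATctaCACtggggaacttcagat
In each of these 4 genes both capital codons read histidine. In GRCm38 the Car1 stretch lies at chr3:14776266-14776295 on the minus strand in exon 4 of 8, and that of Car2 at chr3:14895063-14895092 on the plus strand in exon 3 of 7. The Car4 stretch is chr11:84964161-84964190 on the plus strand in exon 4 of 8, and the Car9 stretch chr4:43508958-43508987 on the plus strand in exon 4 of 11. All are coding exons.

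Car1, Car2 and Car4 made up nearly all carbonic anhydrase transcripts, and all of them were scarcest in the WT polyp library. Car1, a cytosolic enzyme abundant in colon epithelium and red blood cells, stood at 1053 TPM in non-polyp tissue and 374 in polyps of WT mice, and at 968 in non-polyp tissue and 1237 in polyps of KO mice. Car2, the fast cytosolic enzyme found in many acid- and bicarbonate-secreting cells, was listed at 744, 198, 844 and 662 TPM in the same order, in which all sets of 4 levels are given. For Car4, an enzyme tied by a lipid anchor to the outer face of the membrane, the levels were 875, 14.2, 1155 and 811 TPM. The WT polyp library was thus the low one for each gene, and the other 3 libraries were closer to one another than to it. The highest level was 3.31 times the lowest for Car1, 4.27 times for Car2 and 81.2 times for Car4.

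**Figure D1:**
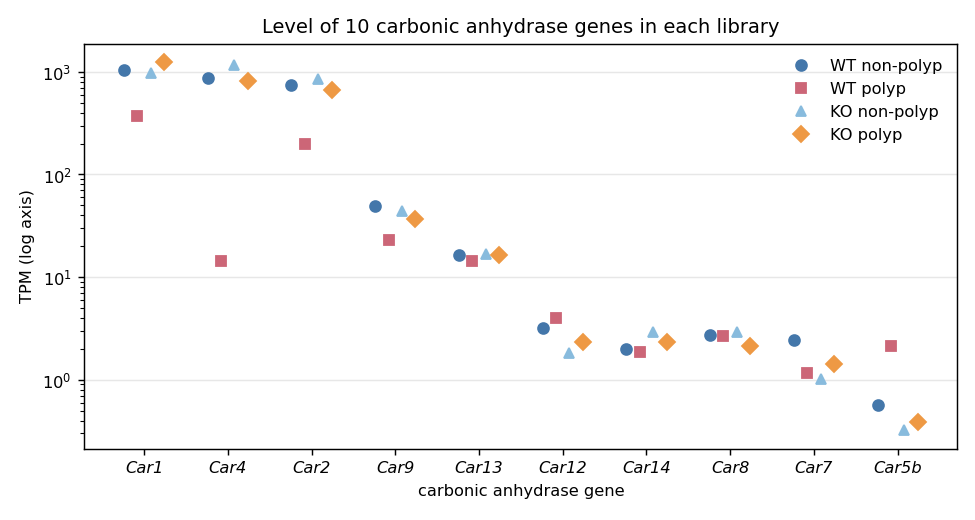
TPM on a log axis for each of the 10 carbonic anhydrase genes, ordered by their highest level, with 1 point per library (no replicates, so no error bars). The WT polyp point lies below the other 3 for Car1, Car2, Car4, Car9, Car13 and Car14, and for Car4 it is at 14.2 TPM where the next lowest is at 811.

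The 7 other genes were much scarcer. Car9, a membrane-spanning enzyme induced by low oxygen through hypoxia-inducible factors, was listed at 48.9 and 23.0 TPM in non-polyp tissue and polyps of WT mice and at 43.9 and 36.6 TPM in those of KO mice. Car13, a cytosolic enzyme, varied least of all 10 genes, at 16.4, 14.2, 16.8 and 16.6 TPM. These were the only others to reach 5 TPM, and both did so in every library, as did Car1, Car2 and Car4. The membrane-spanning enzymes Car12 and Car14, the cytosolic Car7 and the inactive relative Car8 never fell under 1.01 TPM and never reached 5 TPM. Car5b, a mitochondrial enzyme, was highest in WT polyps at 2.12 TPM, against 0.565 in WT non-polyp tissue, and its levels in KO mice were 0.321 in non-polyp tissue and 0.392 in polyps. Car12 too was highest in WT polyps, by a smaller margin. Mean coverage of Car5b was 2.67 reads per base in WT polyps, so its difference rests on few reads.

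Summed over the 10 genes, carbonic anhydrases reached 2748 TPM in non-polyp tissue and 634 in polyps of WT mice, then 3037 in non-polyp tissue and 2772 in polyps of KO mice. That was 0.319%, 0.0723%, 0.342% and 0.306% of the TPM of all reference genes. The makeup of the sum also differed in the WT polyp library. Car4 gave 31.8% of it in WT non-polyp tissue and, in KO mice, 38.0% in non-polyp tissue and 29.3% in polyps, but 2.24% in WT polyps. There the cytosolic genes took 92.9% of the sum, against 60.3% to 69.2% elsewhere. Car1, Car2 and Car4 together held 97.2%, 92.3%, 97.7% and 97.8%. The order of levels was Car1, Car4, Car2, Car9, Car13 in WT non-polyp tissue and KO polyps. Car4 stood before Car1 in KO non-polyp tissue, whereas in WT polyps the order was Car1, Car2, Car9, Car4, Car13, with Car4 and Car13 both at 14.2 TPM. Whether neighbours in these orders differ beyond the spread between mice cannot be told from 1 pool each.

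**Figure D2:**
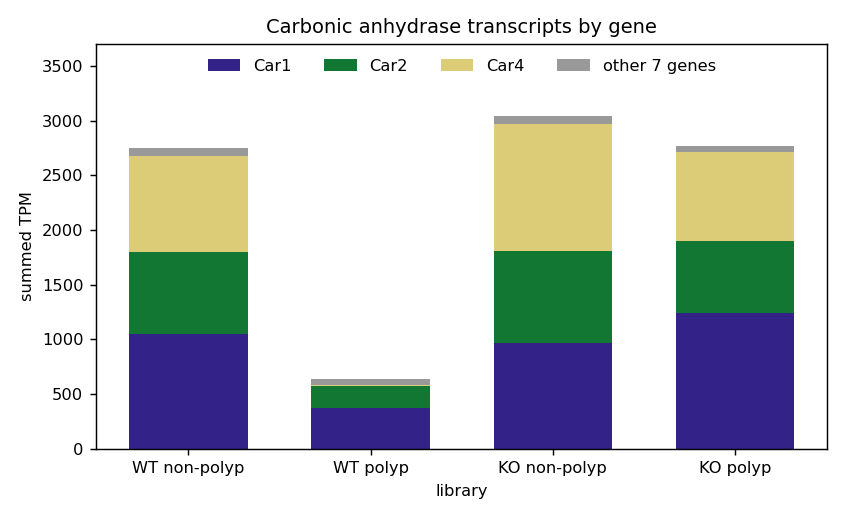
Summed TPM of the 10 carbonic anhydrase genes in each library (bars from 0), split into Car1, Car2, Car4 and the other 7 genes. The WT polyp bar reaches 634 TPM and holds almost no Car4, while the other 3 bars reach between 2748 and 3037 TPM with all 3 main genes in similar parts.

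The comparison of polyps with non-polyp tissue in WT mice asks how the enzymes differ in a polyp. Car4 was lower by far in WT polyps, with a log2 ratio of -5.85, and Car2 (-1.91), Car1 (-1.49) and Car9 (-1.06) were lower as well. Among the 10 genes, 4 were lower and 0 higher, where 3.67% of all gene names were lower and 5.17% higher. Of the 5 genes at 5 TPM or more, 4 were lower and 0 higher, where 10.4% of all such names were lower and 15.4% higher. The median log2 ratio of the 10 genes was -0.43, against 0.00 over all names. Car13 at -0.20, Car7 at -0.66, Car8 at -0.03, Car14 at -0.05 and Car12 at 0.26 stayed within the threshold. Car5b lay just inside it at 0.997, and passed it only with a pseudocount of 0.1 TPM (1.74). Car9 lay just past it and fell inside at -0.94 with a pseudocount of 5 TPM. In bulk tissue, fewer cells of a type and less RNA per cell cannot be told apart.

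The comparison of KO with WT polyps asks how the 2 genotypes differ in tissue labelled as polyp. Car4 was the gene that differed most, with a log2 ratio of 5.74 for KO over WT, followed by Car2 at 1.74 and Car1 at 1.72. Car5b was lower in KO, at -1.17, and stayed past the threshold neither with a pseudocount of 5 TPM (-0.40), nor in FPKM + 1 (-0.75), nor when scaled to Gapdh (-0.95). FPKM values are smaller than TPM here, so the added 1 weighs more. Without it, Car5b was at 0.175 FPKM in KO against 0.979 in WT polyps. Thus 3 of the 10 genes were higher and 1 lower, where 5.06% of all names were higher and 4.29% lower. At 5 TPM or more, 3 of 5 genes were higher and 0 lower, against 13.9% and 12.1% of such names. Car9 was within the threshold at 0.65, and so were Car13 (0.21), Car14 (0.23), Car7 (0.16), Car8 (-0.23) and Car12 (-0.58). The 10 genes had a median of 0.22, and all names one of 0.00. This comparison and the one before it share the WT polyp library.

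In non-polyp tissue the genotypes differed little. Car4 had a log2 ratio of 0.40 for KO over WT, Car2 one of 0.18 and Car1 one of -0.12. None of the 10 genes passed the threshold, that is 0 higher and 0 lower, while 0.76% of all names were higher and 0.636% lower. With the minimum of 5 TPM these shares were 1.46% and 1.23%, and again 0 of 5 genes were higher or lower. The scarce Car7 had the largest ratio of the family, -0.77, with levels of 2.43 in WT against 1.01 TPM in KO. Scaling to Gapdh, itself at 56.6 TPM in WT against 30.1 in KO non-polyp tissue, moved Car4 to 1.31, Car2 to 1.09 and Car14 to 1.07. That scaling also moved the median of all names at 5 TPM or more in any library to 0.89.

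The KO library labelled polyp lay within the threshold of KO non-polyp tissue for this family, as it did for most gene names. Log2 ratios were 0.35 for Car1, -0.35 for Car2, -0.51 for Car4, -0.26 for Car9 and -0.02 for Car13, and the scarce genes lay between -0.32 and 0.27. So 0 of 10 genes were higher and 0 lower, where 3.29% of all names were higher and 0.989% lower. Above the minimum the counts were 0 and 0 of 5, against 9.16% and 1.97%. Under Gapdh scaling Car4 reached -1.11, past the threshold, and Car1 changed sign, to -0.24.

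The polyp to non-polyp ratio was then set against genotype, as the ratio in KO minus the ratio in WT on the log2 scale. It was 5.34 for Car4, 1.85 for Car1 and 1.56 for Car2, and the latter came to 0.97 when scaled to Gapdh. Thus 3 of 10 genes exceeded 1 and 0 lay below -1, where 5.22% of all names exceeded 1 and 4.85% lay below -1. Car7 at 0.93, Car9 at 0.80 and Car5b at -0.92 came next, and the other 4 genes lay between -0.29 and 0.18. With 1 library per cell of the design, this difference has no error and was not tested.

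**Figure D3:**
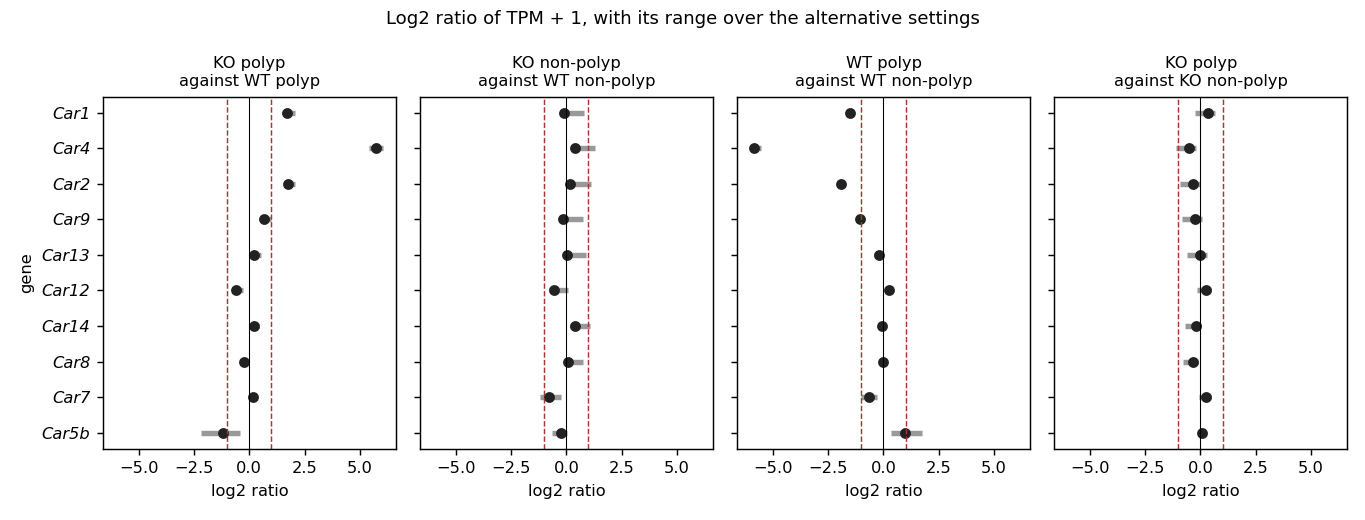
Log2 ratio of TPM + 1 for each gene in the 4 comparisons (black points), with grey bars from the lowest to the highest value over the alternative settings and red dashed lines at the threshold of 1 in each direction. Car4 stands far from the rest at 5.74 for KO over WT polyps and -5.85 for WT polyps over WT non-polyp tissue, and its bars stay beyond 5 there; the other 2 panels hold no black point past the threshold.

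Where the genes lie and how the tables split them bear on these values. Car13, Car1, Car3 and Car2 form a cluster of 259 kb on chromosome 3. In GRCm38 Car1 spans chr3:14766216-14808368 on the minus strand and Car2 spans chr3:14886273-14900770 on the plus strand, with Car13 at chr3:14641727-14663002 and Car3 at chr3:14863512-14872523, both on the plus strand. The neighbours did not all share a pattern. Car13 was level across the libraries, Car1 and Car2 were low in WT polyps, and Car3, an enzyme of muscle and fat that lies between them, was at 41.7 TPM in WT non-polyp tissue, and only 1.34, 1.23 and 0.143 TPM were found in WT polyps, KO non-polyp tissue and KO polyps. Of the 10 genes of an adipocyte list, 5 were lower in KO than in WT non-polyp tissue and 0 were higher. There 0.636% of all names were lower and 0.76% higher. The summed level of the adipocyte list went from 261 TPM in WT non-polyp tissue to between 51.6 and 96.4 TPM in the rest. The part of fat in the Car3 values was not tested.

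**Figure D4:**
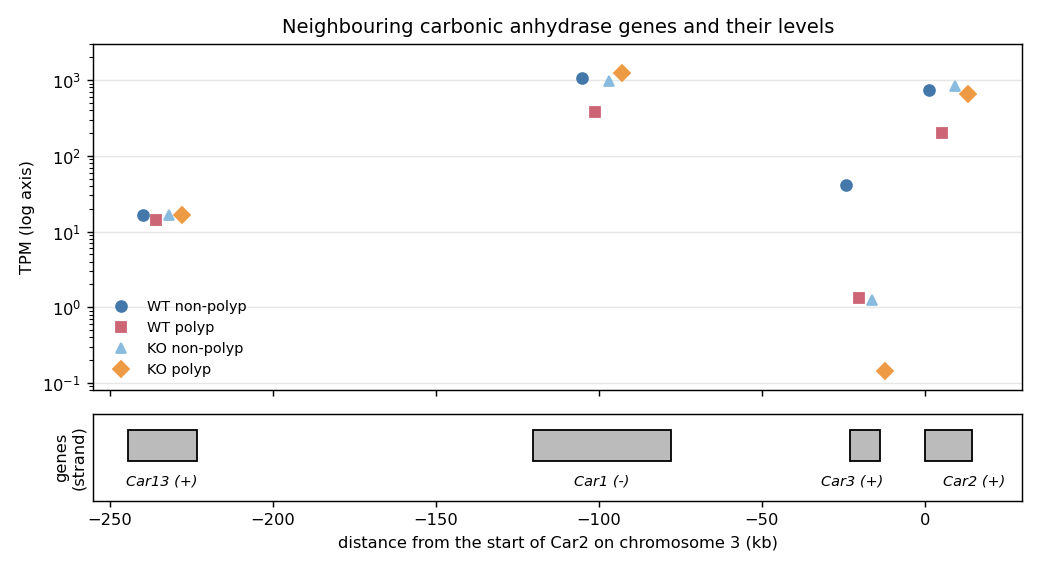
Upper panel: TPM on a log axis of the 4 neighbouring genes, 1 point per library, spread slightly sideways around the middle of each gene; lower panel: the genes to scale, with strand, by distance in kb from the start of Car2. Car13 is level at 14.2 to 16.8 TPM, Car1 and Car2 are lowest in WT polyps at 374 and 198 TPM, and Car3 is high only in WT non-polyp tissue at 41.7 TPM.

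Car1 is known to start from an upstream site in red cell precursors and from a downstream site in the colon. The authors' assembly placed 1 locus there in each of the 3 tables that list assembled loci, at chr3:14766217-14778459, the span of the shortest of 3 annotated transcripts. It ended 29909 bases short of the outer 5' end of the gene, and its levels of 1054, 374 and 1239 TPM in WT non-polyp tissue, WT polyps and KO polyps were nearly those of the whole gene. Of 10 genes of an erythroid list, 5 were lower and 0 higher in KO than in WT non-polyp tissue. There 0.636% of all names were lower and 0.76% higher. Between the polyp libraries 5 were lower and 1 higher in KO, where 4.29% and 5.06% of all names were. The beta-globin gene Hbb-bs stood at 151, 210, 35.5 and 32.7 TPM. The part of red cells in the Car1 values was not tested.

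Car4 spans chr11:84957786-84966044 on the plus strand, and its assembled locus gave 895, 14.4 and 838 TPM in the same 3 libraries, close to the 875, 14.2 and 811 TPM of the gene. Its listed coverage in WT polyps was 4.47, against 304 in WT non-polyp tissue and 286 in KO polyps. Its FPKM was 6.56, 407 and 363 in these libraries. The depth given above would put coverage above FPKM, so for Car4 the listed coverage is not read as reads per base. Car9, at chr4:43506966-43513729 on the plus strand, overlaps the predicted antisense gene Gm12454 over 1782 bases, which was at 28.2, 6.41, 21.4 and 24.1 TPM in the 4 libraries. The library kit that the labels name does not mark strand, so the reads of Car9 and Gm12454 cannot be told apart where they overlap. Gm12454 was lowest in the WT polyp library too. In KO polyps the assembly joined both into 1 locus. Likewise Car14 overlaps Aph1a, a subunit gene of gamma-secretase on the other strand at 51.3 to 63.9 TPM, over 521 bases, while its own level was 1.86 to 2.91 TPM, and reads there cannot be told apart either. Car5b had an assembled locus only in WT polyps, where a second locus of 14.7 TPM on the other strand reached into the gene from beyond its end.

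Car9 is a standard hypoxia marker, so the core of the hypoxia response element, ACGTG, was searched on both strands in the 250 bases before each RefSeq start (GRCm38.p6). Promoters were found for 6 genes, 8 promoters in all. The motif was in those of Car9 and Car14, 2 of 6 genes. Counted per promoter rather than per gene, it was in 16.6% of all 32851 promoters. Both sites are shown in 30 bases on the strand of the gene, with the motif, here read as its other-strand form CACGT, in capitals.
Car9: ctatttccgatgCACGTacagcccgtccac
Car14: agcccaggcaccacccccctcctCACGTac
The Car9 site is at chr4:43506996-43507025 on the plus strand, its motif beginning 18 bases before the RefSeq start, and the Car14 site at chr3:95904686-95904715 on the minus strand, its motif beginning 7 bases before. The gene spans used for the levels start further upstream, at chr4:43506966 for Car9 and chr3:95904691 for Car14. By those spans the Car9 site lies inside the gene, where Gm12454 overlaps it, and the Car14 site lies across the start. The core of the motif of the intestinal factor Cdx2, TTTAT, was in 0 of the 8 promoters of these genes and in 37.3% of all promoters. Promoters of Car1, Car2, Car8 and Car13 were not searched.

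A hypoxia list of 22 genes, all at 5 TPM or more in at least 1 library, was counted against the threshold as well. Shares of all names apply the minimum within each comparison. There, Pfkfb3 was under it in both non-polyp libraries (4.20 TPM in WT, 3.84 in KO). P4ha2 was under it in both KO libraries (4.50 TPM in non-polyp tissue, 2.35 in polyps). Of these, 1 was higher and 2 lower in KO than in WT polyps, where 13.9% and 12.1% of such names were. Their median log2 ratio was 0.00. In WT polyps against WT non-polyp tissue 2 were higher and 3 lower, where 15.4% and 10.4% of such names were, with a median of -0.12. The hypoxia factor Epas1 (68.1, 23.3, 79.0 and 60.5 TPM) and the glycolytic regulator Pfkfb4 (16.8, 6.19, 14.1 and 11.2 TPM) were low in WT polyps, as Car9 was. The stress gene Ddit4 (112, 270, 85.2 and 117 TPM) and the collagen hydroxylase P4ha2 (7.64, 12.4, 4.50 and 2.35 TPM) were high there. Between the non-polyp libraries 0 of the 22 passed the threshold, where 1.46% of names at 5 TPM or more were higher and 1.23% lower. Between the KO libraries 1 was higher and 0 lower, where 9.16% and 1.97% of such names were.

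Transporters that use the ions made by carbonic anhydrases were called in both directions. Of 20 genes for bicarbonate, proton and chloride transport, 7 were higher and 3 lower in KO than in WT polyps, where 5.06% and 4.29% of all names were, with a median log2 ratio of 0.18. In WT polyps against WT non-polyp tissue 4 were higher and 7 lower, where 5.17% and 3.67% of all names were, with a median of -0.22. Among these calls, Slc4a5 (lower in KO, higher in WT polyps) and Slc4a9 (higher in WT polyps) were scarce genes, at 1.10 and 1.15 TPM in WT polyps and under 1 TPM elsewhere. Besides them, only Slc9a3 and Slc16a3 were lower in KO polyps or higher in WT polyps. The 7 genes higher in KO polyps were the 7 lower in WT polyps, and all reached 5 TPM. Of all names at 5 TPM or more, 13.9% were higher and 12.1% lower in KO than in WT polyps. Between the WT libraries 15.4% of such names were higher in polyps and 10.4% lower. The genotypes differed at 0 of 20 in non-polyp tissue, where 0.76% of all names were higher in KO and 0.636% lower. The KO libraries differed at 1, which was higher in KO polyps, where 3.29% of all names were higher and 0.989% lower. Slc26a3, the chloride-bicarbonate exchanger of the colon surface, stood at 435, 7.12, 521 and 545 TPM. The proton pump Atp12a was at 171, 22.2, 183 and 141 TPM, and the sodium-proton exchanger Slc9a2 at 90.4, 15.2, 127 and 85.3 TPM. All 3 were lowest in WT polyps. Slc9a3, another sodium-proton exchanger, went the other way, at 42.0, 124, 77.8 and 47.7 TPM. Slc16a3, which exports lactate with a proton, was also high in WT polyps, at 59.3 TPM against 7.36, 6.65 and 3.57 TPM in the other libraries in order.

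**Figure D5:**
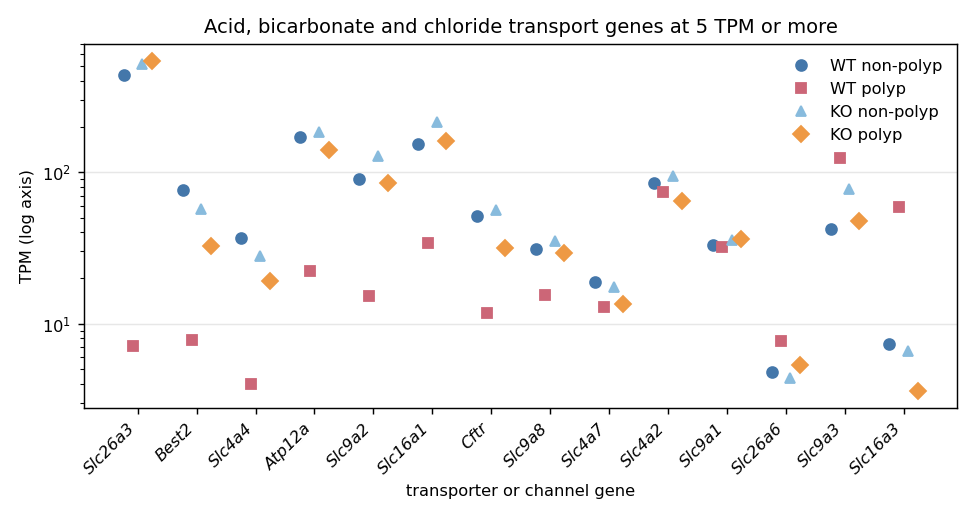
TPM on a log axis of the 14 transport genes that reached 5 TPM in at least 1 library, ordered by their log2 ratio between WT polyps and WT non-polyp tissue, with 1 point per library. At the left, Slc26a3 is at 7.12 TPM in WT polyps and at 435 to 545 TPM elsewhere, and at the right Slc16a3 is at 59.3 TPM in WT polyps and at 3.57 to 7.36 TPM elsewhere.

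The genes most like the 3 abundant members were searched among 10818 names at 10 TPM or more in at least 1 library. Predicted, clone-type and accession-type names were left out. Likeness was the distance between log2 levels centred over the 4 libraries. Nearest to Car4 were the glucuronosyltransferase Ugt1a7c (120, 0.508, 144 and 96.3 TPM), Slc26a3 and the water channel Aqp8 (365, 7.08, 782 and 506 TPM), at distances of 0.35, 0.43 and 0.53. Nearest to Car1 were Rarres2, the gene of chemerin (122, 44.6, 115 and 149 TPM), the arrestin Arrb1 and the sulfatase Arsa, at 0.05, 0.10 and 0.11. For Car2 they were the phosphatase gene Ctdspl (40.9, 10.2, 45.1 and 34.6 TPM), the acyltransferase gene Agpat4 and Cryzl2, at 0.06, 0.08 and 0.08. The 3 members thus had different nearest genes, and with 4 libraries the likeness is a description only.

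The 6 remaining genes of the family and its inactive relatives were scarce apart from Car3. Car15, a membrane-anchored enzyme, was at 5.15, 2.34, 4.70 and 4.18 TPM, and Car11, an inactive relative, at 2.68, 0.689, 2.19 and 1.12 TPM. Car5a, Car6 and Car10 stayed under 1 TPM in every library. Of the 6, 0 were higher and 1 lower in KO than in WT polyps, where 5.06% and 4.29% of all names were. That gene was Car3, just past the threshold at -1.03, with 0.143 TPM in KO against 1.34 in WT polyps. In WT polyps against WT non-polyp tissue 0 were higher and 2 lower, Car3 and Car11, where 5.17% and 3.67% of all names were. The counts were 0 higher and 1 lower between the non-polyp libraries, again Car3, where 0.76% and 0.636% of all names were. Between the KO libraries 0 were higher and 0 lower, where 3.29% and 0.989% of all names were.

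Genes of other cell types moved between the same libraries, and their part in the carbonic anhydrase values was not tested. Shares of all names, then of names at 5 TPM or more, come first. Between the WT libraries 5.17% and 15.4% were higher in polyps, 3.67% and 10.4% lower. Between the polyp libraries 5.06% and 13.9% were higher in KO, 4.29% and 12.1% lower. Between the KO libraries 3.29% and 9.16% were higher in polyps, 0.989% and 1.97% lower. Between the non-polyp libraries 0.76% and 1.46% were higher in KO, 0.636% and 1.23% lower. In WT polyps against WT non-polyp tissue, 9 of 14 absorptive colonocyte genes were lower and 2 higher, 16 of 18 Wnt target and crypt genes were higher and 0 lower, and all 10 smooth muscle genes were lower. There 10 of 12 enteric neuron and glia genes and 7 of 10 adipocyte genes were lower and none higher, 6 of 8 squamous genes, 5 of 8 neutrophil and myeloid genes and 3 of 6 distal colon Hox genes were higher and none lower, 1 of 10 pan-epithelial genes was higher, 2 of 8 B cell and 1 of 8 skeletal muscle genes were lower, and 0 of 8 endothelial and 0 of 10 erythroid genes passed. Between KO and WT polyps, 8 of 14 colonocyte genes were higher and 2 lower, 17 of 18 Wnt target genes were lower and 8 of 10 smooth muscle genes and 8 of 8 B cell genes were higher. In the same comparison 6 of 8 squamous, 3 of 6 Hox and 1 of 10 pan-epithelial genes were lower, 1 of 12 neuron and glia genes, 1 of 8 endothelial and 1 of 8 skeletal muscle genes were higher, 4 of 8 myeloid genes were lower and 1 higher, and 0 of 10 adipocyte genes passed. In KO polyps against KO non-polyp tissue, 9 of 10 smooth muscle, 8 of 12 neuron and glia, 2 of 10 adipocyte and 1 of 8 skeletal muscle genes were lower, and 8 of 8 B cell, 5 of 8 myeloid, 2 of 8 squamous and 2 of 14 colonocyte genes were higher. There 5 of 18 Wnt target genes were higher and 2 lower, and 0 of the pan-epithelial, endothelial, Hox and erythroid genes passed. Between the non-polyp libraries, besides the adipocyte and erythroid genes above, 6 of 18 Wnt target, 2 of 8 squamous and 1 of 8 myeloid genes were lower and 2 of 14 colonocyte genes were higher in KO, and no gene of the other cell type lists passed. Summed over the list, B cell genes went from 38.5 to 62.1 TPM in 3 libraries to 1339 TPM in KO polyps, squamous genes from 2.19 to 9.04 TPM in 3 libraries to 629 TPM in WT polyps, and Wnt target genes from 222 to 266 TPM to 3304 TPM in WT polyps. Smooth muscle genes together gave 5241, 427, 5058 and 1585 TPM in the 4 libraries, and colonocyte genes 15188, 6320, 17034 and 14193 TPM. Defining genes listed at 0 in 1 or more libraries included Adipoq, Cfd and Plin1 of fat, Gfap of glia, and Krt4 and Ivl of squamous epithelium. The summed level of skeletal muscle genes stayed between 4.37 and 11.3 TPM.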

How the data were processed

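The 4 tables hold 1 library each. Per the study's methods, the authors used Trimmomatic for trimming, HISAT2 for alignment to GRCm38 (mm10) and StringTie for assembly; versions and annotation release are not given in the sources used here. The deposited TPM of reference genes were used as the authors made them. Per the file headers, 3 tables also hold FPKM and a coverage signal, and list assembled loci under the same TPM score column, so that it sums past 1000000; genes and loci were kept apart. The fourth table, of KO non-polyp tissue, pairs TPM with a ratio, each value over Gapdh by the authors, which was not used.

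Names that had turned into dates were restored from gene identifiers for 27 names in each of 3 tables, and TPM was summed per name. Log2 ratios used a pseudocount of 1 TPM and the study's threshold of 1. Sequences came from GENCODE vM21 transcripts and RefSeq promoters, both on GRCm38. The coding stretch was found by its amino acid pattern around the zinc-binding histidines. The members and gene lists were chosen with earlier results of these data known. All 10 members were named, with up to 4 genes of each of 16 lists, those with the largest absolute log2 ratio between the polyp libraries at 5 TPM or more, all 6 other carbonic anhydrases, and the 3 genes nearest in pattern to each member at 50 TPM or more. Slc9a3, Slc4a5, Slc4a9, genes shown at 0 or counted among lists beyond these were named after their values were seen. Slc26a3 and Slc9a3 are on the lists of both transporters and colonocytes, and Slc4a1 is on those of transporters and red cells. The ratio code was run on simulated data with known changes, planted in genes at 5 TPM or more. The simulation held small added noise but no spread between pools, so it checks the code only. The alternatives tried were FPKM with 1 added, 6 rescalings, the assembled locus in place of the gene, a 5 TPM minimum, and pseudocounts of 5 and 0.1 TPM. Python 3.11.15, pandas 2.3.3, numpy 2.4.6 and matplotlib 3.10.9 were used.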

Additional observations from a re-analysis of the deposited data

How the results depend on the processing

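Over the alternatives, 417 of 432 values of single genes kept their side of the threshold, 10 moved past it and 5 fell inside it. The sign turned for 24 values, 10 of them under Gapdh and 8 under pan-epithelial scaling, and 0 of these were past the threshold under either setting. Car4 stayed between 5.41 and 6.04 for KO over WT polyps and between -6.01 and -5.52 for WT polyps over WT non-polyp tissue. Car1 ranged from 1.60 to 2.06 and from -1.66 to -1.48 there, and Car2 from 1.69 to 2.07 and from -2.07 to -1.88. Scaling to Gapdh put 3 genes past the threshold between the non-polyp libraries and 1 between the KO libraries, where 0 were otherwise, and moved the ratio of the summed level between non-polyp libraries from 0.14 to 1.06. A pseudocount of 0.1 TPM put 1 gene, Car7 at -1.18, past it between the non-polyp libraries. It also put Car7 at 1.45 and Car5b at -1.52 past it in the difference between genotypes, as scaling to pan-epithelial genes did for Car7 (1.17) and Car9 (1.21).

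Counts of all names depended on the pseudocount. With 0.1 and 5 TPM, 10860 and 2581 names passed the threshold between the polyp libraries (5106 otherwise), 10542 and 2420 between the WT libraries (4826), 7094 and 965 between the KO libraries (2338) and 4574 and 172 between the non-polyp libraries (762). Gapdh scaling gave 3620 for the KO and 5261 for the non-polyp libraries, and the 5 TPM minimum 1472 and 338. The median log2 ratio at 5 TPM or more was 0.22 between the WT libraries and 0.06 after median-of-ratios scaling. FPKM and assembled loci exist for 3 libraries and gave no value for the comparisons with KO non-polyp tissue, and no single assembled locus stood for Car9 without the reads of its neighbour. No paired analysis was possible because each group has 1 library, numbered alike. Read counts are unknown, so no counting interval is given, and genes under 5 TPM are the least precise.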
